A study of Mus musculus with 29 samples.

Results

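The genes described are 8 ubiquitin ligase genes of striated muscle, followed through experimental heart failure and recovery in the mouse heart. They were chosen by symbol among the 29955 genes of the deposited table: Fbxo40, Fbxo32, Trim63, Trim54, Trim55, Asb2, Kbtbd10 and Fbxl22. All 8 were found, and all 8 were among the 12759 genes tested, those averaging 0.5 FPKM or more (fragments mapped to a gene, scaled to its transcript length and to the library). Fbxo40 was chosen on its fall in HF week 5 against Control week 19, and the others as muscle ligases. That comparison, and the 2 comparisons that reuse its libraries, are therefore given for these genes as a description with no test.

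Male C57BL6 mice (C57BL/6J in the methods), 3 months old at the start, drank water with 0.3 mg/ml L-NAME, which blocks nitric oxide synthesis, and 1% NaCl. After 1 week a minipump was added that released angiotensin II for 4 weeks, at a daily dose of 0.7 mg/kg. Hearts were taken during induction (HF week 3, 2 libraries, and HF week 5, 3 libraries) and, once the agents had been stopped, in recovery. Recovery week 7 had 2 libraries, week 9 had 2, week 11 had 3, week 13 had 2 and week 19 had 5. Untreated mice, age-matched to Recovery week 19, gave 5 libraries at Control week 19. The age at sampling thus runs with the study week, and no control of weeks 3 to 13 was analysed here. In every comparison of a heart failure group here, heart failure and age at sampling therefore cannot be told apart. The labels give whole heart or whole ventricle as the tissue, and the methods give the apical portion. The columns do not show which animal each library came from, so libraries carry only a number within their group, and p-values measure the spread between these libraries.

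Ubiquitin ligases attach ubiquitin to chosen proteins, which are then degraded by the proteasome or otherwise redirected. In striated muscle a small set of them is largely restricted to the myocyte, where it controls the turnover of sarcomere proteins and signalling proteins. Fbxo40 and Fbxo32 (atrogin-1) are F-box proteins, which bring substrates to SCF complexes, and Fbxl22 is an F-box protein of the sarcomere. Fbxo40 is known for ubiquitinating IRS1, an adaptor of the insulin and IGF1 receptors. Trim63 (MuRF1), Trim54 (MuRF3) and Trim55 (MuRF2) are the muscle RING finger proteins. Asb2 and Kbtbd10 are substrate adaptors of other cullin ligases, of CUL5 and CUL3 respectively.

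The sequences just upstream of the genes are shown because the members are described together below. Promoter windows from RefSeq (GRCm38.p6, a later build than that of the expression values) hold 250 bases before and 50 bases after the gene start. They matched 6 of the 8 members, Fbxo32 and Trim55 being without one, and Kbtbd10 is entered there as Klhl41. Both strands were searched for the FoxO core GTAAACA, the M-CAT element CATTCC, the E-box CANNTG, the MEF2 site and the CArG box, counting each match once. Capitals mark matches other than E-boxes. The windows of Fbxo40, Asb2 and Kbtbd10, which were lower in HF week 3 than in both recovery sets, and of Trim63, the one member window with a FoxO core, read 5′ to 3′ on the strand of the gene:
Fbxo40, chr16:36990418-36990717, minus strand: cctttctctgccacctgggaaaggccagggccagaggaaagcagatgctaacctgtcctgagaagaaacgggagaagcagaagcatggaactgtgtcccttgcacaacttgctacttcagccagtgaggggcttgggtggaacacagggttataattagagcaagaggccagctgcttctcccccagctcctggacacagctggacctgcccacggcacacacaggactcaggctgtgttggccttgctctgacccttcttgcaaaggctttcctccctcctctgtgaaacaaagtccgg
Asb2, chr12:103355952-103356251, minus strand: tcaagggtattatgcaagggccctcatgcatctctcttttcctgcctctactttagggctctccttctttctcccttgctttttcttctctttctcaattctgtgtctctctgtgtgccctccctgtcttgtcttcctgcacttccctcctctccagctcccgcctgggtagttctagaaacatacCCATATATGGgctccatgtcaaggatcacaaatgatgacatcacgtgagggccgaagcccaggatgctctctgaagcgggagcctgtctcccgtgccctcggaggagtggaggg
Kbtbd10, chr2:69669870-69670169, plus strand: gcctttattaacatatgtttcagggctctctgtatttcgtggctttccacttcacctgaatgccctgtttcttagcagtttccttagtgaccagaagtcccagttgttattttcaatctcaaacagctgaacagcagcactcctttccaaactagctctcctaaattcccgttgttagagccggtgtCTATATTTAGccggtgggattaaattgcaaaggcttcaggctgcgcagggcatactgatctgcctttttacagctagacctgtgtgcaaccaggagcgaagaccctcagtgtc
Trim63, chr4:134314870-134315169, plus strand: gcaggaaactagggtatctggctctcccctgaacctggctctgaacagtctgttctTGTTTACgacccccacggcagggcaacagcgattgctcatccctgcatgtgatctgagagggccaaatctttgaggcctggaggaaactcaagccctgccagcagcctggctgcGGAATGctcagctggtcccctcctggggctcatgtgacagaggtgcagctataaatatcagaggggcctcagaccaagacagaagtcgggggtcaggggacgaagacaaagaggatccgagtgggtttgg
In the Fbxo40 window the search counted 4 E-boxes and no match to the other motifs. In a second Fbxo40 window, at chr16:36979087-36979386 on the minus strand, it counted 2 E-boxes and none of the others. The pattern used for the MEF2 site is not stated here, so its absence from any window holds for that pattern only. An AT-rich run in the printed Fbxo40 window was not counted, and a looser MEF2 pattern could count it. E-boxes were in 72.3% of 32851 windows of this length. The Trim63 window held 1 FoxO core, beginning at position −194 from the gene start, and 1 M-CAT element at −80. These motifs were in 3.65% and 14.7% of all windows. Asb2 held a CArG box (1.63% of windows) and Kbtbd10 a MEF2 site (0.557%), beginning at positions −64 and −63. Among the windows not printed, a second Asb2 window held 1 E-box and none of the other motifs, Trim54 held 2 M-CAT elements and Fbxl22 a CArG box and 1 M-CAT element. The letters are a description of the windows and say nothing of whether a factor binds.

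Levels differed widely between the members. FPKM is per length of transcript, so levels may be set side by side. In Control week 19, Trim54 had a mean of 306 ± 26.1 FPKM (SD, n = 5) and Asb2 of 291 ± 23.0. Trim63 followed with 75.8 ± 7.50, Fbxl22 with 48.3 ± 6.29 and Kbtbd10 with 23.4 ± 2.55. Fbxo40, at 11.4 ± 3.87, Trim55, at 9.46 ± 2.14, and Fbxo32, at 8.58 ± 1.62, were the low members.

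**Figure D1:**
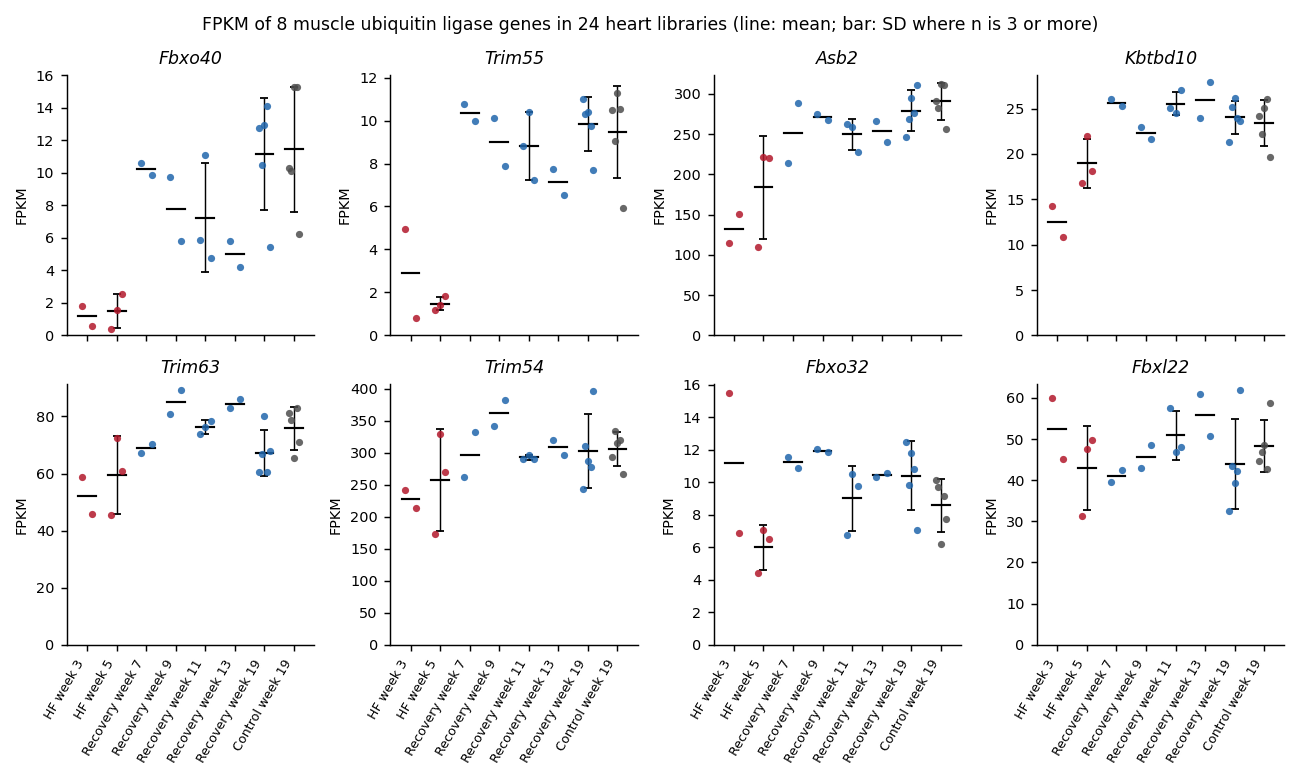
FPKM of each member (vertical axes, from 0) in every library, by group; red points are heart failure, blue recovery and grey control, lines are means and bars SD. Fbxo40 sits at 0.422 to 2.54 FPKM in the 5 heart failure libraries and at 4.21 to 15.3 in the other 19, Trim55 at 0.825 to 4.96 and 5.91 to 11.3, while Fbxl22 and Fbxo32 show no such step.

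Fbxo40 and Trim55 were the members with the largest differences between heart failure and the other groups. Fbxo40 had 0.422, 1.56 and 2.54 FPKM in the 3 libraries of HF week 5. In Control week 19 it had 10.3, 10.1, 15.3, 15.3 and 6.22 FPKM. The lowest control library was above the highest HF library. The log2 fold change was −2.67 (SE 0.39), on the log2(FPKM + 0.5) scale as all fold changes here, and this is the difference on which the gene was chosen. In HF week 3 the libraries had 1.81 and 0.552 FPKM.

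Fbxo40 was above the HF libraries in every recovery group. It had 10.6 and 9.85 FPKM in Recovery week 7, 9.76 and 5.78 in week 9, and 5.89, 11.1 and 4.77 in week 11. Week 13 gave 5.79 and 4.21. Week 19 gave 12.8, 10.5, 12.9, 14.1 and 5.42. All 14 recovery libraries lay above all 5 HF libraries, with the lowest of them at 4.21 against 2.54. Both libraries of week 13, 2 of week 11 and 1 each of weeks 9 and 19 lay below the lowest control library. In order of the group means, Control week 19, Recovery week 19 and Recovery week 7 came first (11.4, 11.1 and 10.2 FPKM), followed by Recovery weeks 9, 11 and 13 (7.77, 7.25 and 5.00), HF week 5 (1.51) and HF week 3 (1.18). Neighbours in this order overlapped except Recovery week 7 with week 9, and Recovery week 13 with HF week 5.

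Trim55, whose protein associates with the titin kinase region of the sarcomere, was also low in heart failure. It had 1.19, 1.43 and 1.82 FPKM in HF week 5. In Control week 19 it had 10.5, 9.07, 11.3, 10.5 and 5.91, so that the groups did not overlap (log2 fold change −2.31, SE 0.30). The HF week 3 libraries stood apart from each other, at 4.96 and 0.825. In Recovery weeks 7, 9, 11 and 13 the libraries ranged from 6.53 to 10.8, and in Recovery week 19 they had 11.02, 10.3, 10.4, 9.74 and 7.71. Every recovery library was thus above every HF library. The group means of Trim55 ran from 10.4 in Recovery week 7 to 7.13 in Recovery week 13 with overlap between all neighbours in order, and only the step from Recovery week 13 down to HF week 3 had none.

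Trim55 fell in relation to its close relatives. Of the summed FPKM of Trim63, Trim54 and Trim55, Trim55 made up 1.72% to 2.88% in the control libraries and 0.353% to 0.547% in HF week 5. HF week 3 had 0.317% and 1.63%, and Recovery week 19 had 1.63% to 3.49%. The ratio of Fbxo40 to Fbxo32, the 2 named F-box genes of similar level, was 0.803 to 2.47 in the control libraries. HF week 5 had ratios of 0.0951 to 0.391. Recovery weeks 7 to 13 had 0.397 to 1.06, the lowest in week 13, and Recovery week 19 had 0.770 to 1.30. These ratios use the comparison on which Fbxo40 was chosen and carry no test.

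**Figure D2:**
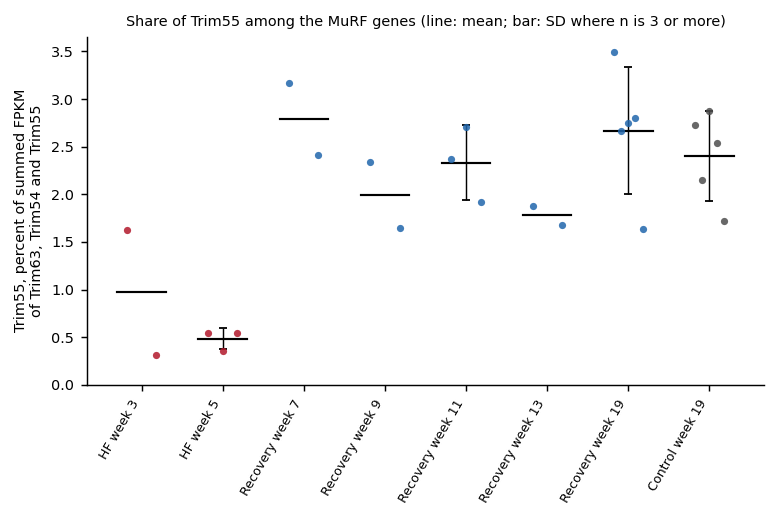
Trim55 as a percent of the summed FPKM of the 3 MuRF genes (vertical axis, from 0) in every library, by group; lines are means and bars SD. HF week 5 lies at 0.353% to 0.547%, below every recovery and control library, while HF week 3 has one library at 1.63%.

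Asb2, which targets filamins in muscle, had 110, 222 and 220 FPKM in HF week 5. In Control week 19 it had 291, 283, 313, 311 and 257. The groups did not overlap, and the log2 fold change was −0.73 (SE 0.18). Without HF week 5 library 1 it was −0.39. HF week 3 had 114 and 151 FPKM, Recovery week 19 had 246 to 311, and the recovery libraries of weeks 7 to 13 had 214 to 289.

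Kbtbd10, a BTB and kelch protein needed for skeletal myofibril assembly, had 16.8, 21.97 and 18.1 FPKM in HF week 5. The control libraries ranged from 19.6 to 26.1 and overlapped with these (log2 fold change −0.30, SE 0.11). In HF week 3 it had 14.2 and 10.8 FPKM. These 2 libraries were below all others, which had 16.8 to 27.9.

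Trim63 and Fbxo32 are the well-known atrophy genes. Trim63 had 45.3, 72.6 and 60.8 FPKM in HF week 5 and 65.3 to 83.1 in Control week 19 (log2 fold change −0.37, SE 0.13, and −0.18 without HF week 5 library 1). HF week 3 had 58.8 and 45.7, and the groups of weeks 7 to 13 had 67.4 to 89.2. Recovery week 19 had 60.5 to 80.1, which overlapped with HF week 5. Fbxo32 had 4.44, 7.06 and 6.496 FPKM in HF week 5 and 6.19 to 10.2 in Control week 19 (log2 fold change −0.49, SE 0.23, and −0.30 without HF week 5 library 1). The HF week 3 libraries had 15.5 and 6.86, the first being the highest Fbxo32 value of the 24 libraries. In Recovery week 19 Fbxo32 had 7.04 to 12.5 FPKM, and in Recovery weeks 7 to 13 it had 6.74 to 12.05.

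Trim54, a microtubule-associated MuRF, had 173, 330 and 270 FPKM in HF week 5 and 268 to 334 in Control week 19. The log2 fold change of −0.30 (SE 0.17) was −0.03 without HF week 5 library 1. HF week 3 had 241 and 214 FPKM, Recovery weeks 7 to 13 had 262 to 383 and Recovery week 19 had 244 to 397. Fbxl22 had 31.2, 47.7 and 49.8 FPKM in HF week 5, 59.9 and 45.2 in HF week 3 and 42.7 to 58.8 in Control week 19. In recovery it had 39.6 to 61.1 in weeks 7 to 13 and 32.5 to 61.9 in week 19. The log2 fold change of Fbxl22 in HF week 5 against control was −0.19 (SE 0.18), and it was 0.02 without HF week 5 library 1.

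In HF week 5 against Control week 19, 3 of the 8 members did not overlap between the groups, all lower in HF: Fbxo40, Trim55 and Asb2. Of all genes tested, 14.7% lay lower without overlap and 29.5% were without overlap in either direction. The median log2 fold change was −0.43 over the members, Fbxo40 included, and 0.04 over all genes tested. In Recovery week 19 against HF week 5 the same 3 genes were higher without overlap. Of all genes, 14.1% were higher without overlap and 26.7% were without overlap in either direction. These comparisons share the HF week 5 libraries. The log2 fold changes were 2.63 (SE 0.39) for Fbxo40, 2.39 (SE 0.30) for Trim55 and 0.67 (SE 0.18) for Asb2. Those of the others ran from 0.03 for Fbxl22 to 0.75 for Fbxo32. Without HF week 5 library 1, Asb2 had 0.33, Trim54 went from 0.27 to 0.0029, Trim63 from 0.19 to 0.0089 and Fbxl22 to −0.18.

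At Recovery week 19 no member was without overlap with Control week 19, where 0.925% of all genes lay higher and 0.243% lower without overlap. The log2 fold change was −0.04 for Fbxo40 (SE 0.34), 0.08 for Trim55 (SE 0.26) and −0.06 for Asb2 (SE 0.16). Those of the others were between −0.18 for Trim63 and 0.26 for Fbxo32. With 5 libraries in each group the SE of Fbxo40 leaves room for a difference in either direction.

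HF week 3 and Recovery weeks 7 to 13 are not in the comparison that Fbxo40 was chosen on, though the genes were listed with earlier results of these data known. Comparing them asks whether the members were also low in hearts earlier in induction. Against the mean of the 4 recovery groups, 6 of the 8 members were lower in HF week 3 and none higher. The test was limma with Benjamini-Hochberg adjustment over all genes tested, at an adjusted p under 0.05. Of all genes tested, 28.0% were called lower and 23.9% higher in this comparison, so a call by itself says little of a gene. These shares rest on the HF week 3 libraries, being 14.8% and 13.6% without library 1 and 35.8% and 27.6% without library 2. Kbtbd10 had a log2 fold change of −0.97 (SE 0.12, limma adjusted p = 5.44e-06). Trim55 had −1.78 (SE 0.32, limma adjusted p = 0.000171). Fbxo40 had −2.29 (SE 0.42, limma adjusted p = 0.000199). Asb2 had −0.96 (SE 0.19, limma adjusted p = 0.000483).

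The fall of Trim63 was smaller, with a log2 fold change of −0.59 (SE 0.14, limma adjusted p = 0.00223). That of Trim54 was −0.46 (SE 0.18, limma adjusted p = 0.0404). Fbxo32 had −0.03 (SE 0.24, limma adjusted p = 0.934), and Fbxl22 had 0.12 (SE 0.19, limma adjusted p = 0.627). The calls for Fbxo40, Trim55, Asb2 and Kbtbd10 held without either HF week 3 library. The size for Trim55 was −2.80 without library 1 and −0.75 without library 2. The call for Trim63 was lost without library 2, where the size was −0.41. It held in the fits with other scalings or trends removed (limma adjusted p = 0.0015 to 0.00938). The call for Trim54 was lost without library 1 (−0.55) and without library 2 (−0.38). The Trim54 call was also lost with quantile normalization (−0.27, limma adjusted p = 0.102) and with no filter on low values (−0.46 as in the main fit, limma adjusted p = 0.0581). Its limma adjusted p ran from 0.00245 to 0.102 over the alternatives that kept both HF week 3 libraries. The median log2 fold change was −0.77 over the members and −0.04 over all genes.

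Against Recovery week 19, 4 of the 8 members were called lower in HF week 3 and none higher, where 27.0% of all genes were called lower and 23.2% higher. The 4 were Fbxo40 (log2 fold change −2.83, SE 0.45, limma adjusted p = 5.75e-05), Kbtbd10 (−0.92, SE 0.13, limma adjusted p = 1.99e-05), Trim55 (−1.93, SE 0.34, limma adjusted p = 0.000157) and Asb2 (−1.08, SE 0.21, limma adjusted p = 0.000325). Trim55 was −2.95 without HF week 3 library 1 and −0.91 without library 2. Trim63 (−0.36) and Trim54 (−0.40) were not called (limma adjusted p = 0.0546 and 0.0975). Trim63 was called with median centring, with quantile normalization and without HF week 3 library 1 (limma adjusted p = 0.0395, 0.0435 and 0.0359). Trim54 was called with the length and GC trends removed (−0.57, limma adjusted p = 0.00599). This comparison and the preceding one share the HF week 3 libraries.

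No member was called between late and early recovery. In Recovery week 19 against Recovery weeks 7 to 13, limma called 0 of the 8 members. By limma's unadjusted p, 1 member passed 0.05, as did 7.33% of all genes tested. It was Trim63 (log2 fold change −0.23, SE 0.10, limma adjusted p = 0.666). At an adjusted p under 0.05, 0.00784% of all genes were called higher and 0.0314% lower. Fbxo40 had a log2 fold change of 0.54 (SE 0.30, limma adjusted p = 0.748).

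**Figure D3:**
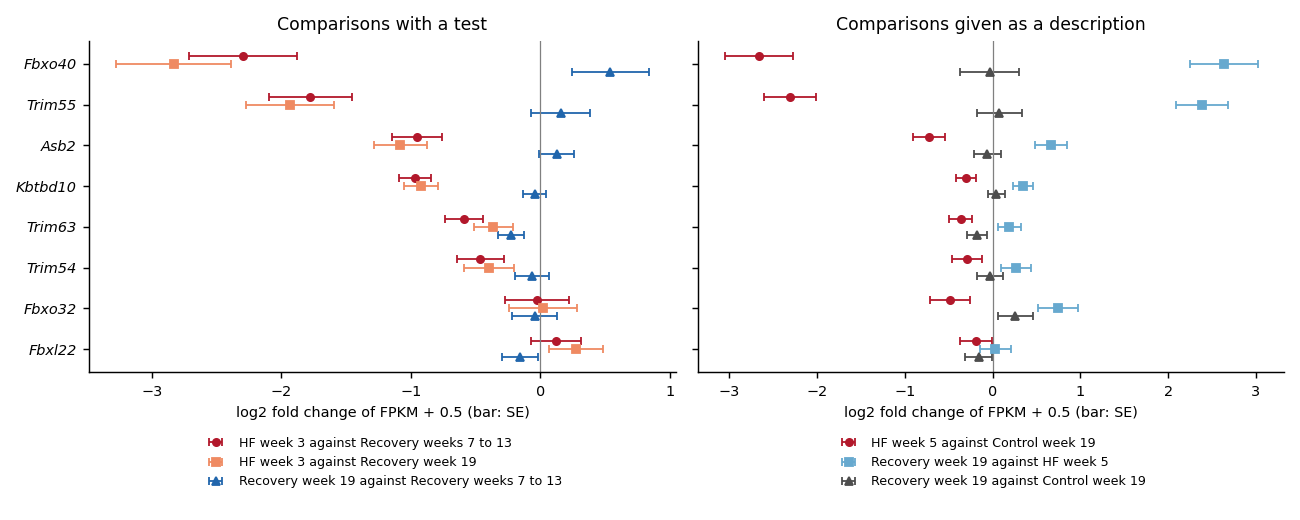
Log2 fold change of FPKM + 0.5 with its SE for each member (horizontal axes); the left panel holds the comparisons that were tested and the right panel those given as a description. Fbxo40 and Trim55 lie farthest from 0 in each comparison of a heart failure group, from −2.83 to −1.78 and at 2.39 and 2.63, and near 0 in Recovery week 19 against control.

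The libraries differed in ways that bear on these values. HF week 3 library 1 had 12816 genes above 0 FPKM, against 16339 to 18091 in the others, and its low values did not show the steps that single reads leave. Relative depth, read from such steps in the other 23 libraries, ran from 0.728 to 1.40, and the read totals are unknown. The 10 most abundant genes took 14.6% to 18.8% of the summed FPKM in the libraries of HF week 5 and week 19, and 27.9% to 37.4% in Recovery weeks 7 to 13. HF week 3 had 19.8% and 37.5%. Myh6, the main myosin heavy chain gene of the adult mouse ventricle, was listed at 0 throughout HF week 5 and both week 19 groups and was above 0 in the others. HF week 3 against Recovery weeks 7 to 13 does not cross that divide in Myh6. Nppa, the gene of atrial natriuretic peptide, does split this comparison, being listed at 0 in both HF week 3 libraries and at 354 to 2426 FPKM in Recovery weeks 7 to 13. For Myh6, HF week 3 against Recovery week 19 and Recovery week 19 against Recovery weeks 7 to 13 cross the divide. The sources used here do not say whether all columns came from 1 Cuffdiff run with 1 setting, and a difference in processing cannot be told apart from the groups in these comparisons.

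The levels of cell type marker genes also differed. The summed FPKM of 9 cardiomyocyte genes (Myh6 left out) was 35652 to 42537 in Control week 19, 22529 to 39973 in HF week 5 and 23874 to 28811 in HF week 3, with all 9 above 0. Those of 8 fibroblast genes were 253 to 360, 357 to 707 and 740 to 747, and of 7 endothelial genes 257 to 327, 369 to 475 and 408 to 517, all listed genes being above 0. In 5 smooth muscle genes the sums were 157 to 193, 206 to 296 and 206 to 219, and in 7 leukocyte genes 90.6 to 169, 118 to 218 and 178 to 190. The 10 skeletal muscle genes, of which 9 were above 0 in some library of each of these groups, had 137 to 443, 611 to 1326 and 1018 to 2244. In Recovery weeks 7 to 13 the sums were 32544 to 46927 for cardiomyocyte, 269 to 679 for fibroblast, 249 to 275 for endothelial, 127 to 216 for smooth muscle, 73.4 to 309 for leukocyte and 347 to 906 for skeletal muscle genes. The sums of Recovery week 19 were, in that order, 28579 to 44757, 312 to 458, 267 to 292, 134 to 175, 136 to 313 and 239 to 689. The leukocyte sums of recovery thus reached above those of heart failure. In bulk tissue, fewer myocytes and less RNA of a gene per myocyte cannot be told apart. Nor can more cells of a type be told apart from more RNA of its listed genes in the cells present. The part of these differences in the members' values was not tested.

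Atrial genes were high in some heart failure libraries. Myl7, the atrial myosin light chain gene, had 18388, 152 and 6.16 FPKM in the HF week 5 libraries, 1805 and 5773 in HF week 3 and 0.166 to 1.12 in Control week 19. The sum of 5 atrial genes (Nppa, which was listed at 0 in HF week 3, left out) was 8.16 to 12.2 in control, at most 18.2 in recovery and 21.7 in HF week 5 library 3. That library, the lowest of the 5 HF libraries in atrial genes, had 2.54 FPKM of Fbxo40 and 1.82 of Trim55, both below all controls. In HF week 5 library 2 the sum was 425 with 1.56 FPKM of Fbxo40 and 1.43 of Trim55. In HF week 5 library 1 it was 39869 with 0.422 and 1.19. HF week 3 library 1 had an atrial sum of 7769 with 1.81 FPKM of Fbxo40 and 4.96 of Trim55. HF week 3 library 2 had 14112 with 0.552 and 0.825. Within each week both genes were lower where the atrial sum was higher, and across the weeks this order did not hold. The part of atrial tissue in these values was not tested. Without HF week 5 library 1, the log2 fold change against control was −2.19 for Fbxo40 and −2.20 for Trim55.

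Fbxo40 and Trim55 also varied with transcript-length differences between libraries outside heart failure. For each library a length trend was taken, the median log2 deviation of genes with transcripts above 6000 bases minus that of genes with transcripts below 1000 bases. It ran from −0.53 to 0.60 over the 24 libraries and was −0.17 to −0.05 in HF week 5, within the −0.23 to 0.20 of Control week 19. HF week 3 library 1 had 0.51, above that range, and library 2 had −0.04. Over the 19 recovery and control libraries, log2 Fbxo40 correlated with it at Pearson r = 0.84 (permutation p = 3e-05, adjusted 0.00012 over 8 members) and Spearman rho = 0.88 (permutation p = 1e-05, the smallest that 100000 permutations give, adjusted 8e-05). The permutations moved libraries freely between groups, so these p-values also take in differences between groups. How many other genes follow the trend was not counted. Pearson r of Fbxo40 was 0.89 within Recovery weeks 7 to 13 (n = 9), 0.83 within week 19 (n = 10) and 0.85 without the 2 libraries farthest from the median trend. Trim55 had r = 0.79 and rho = 0.86 (permutation p = 8e-05 and 3e-05, adjusted 0.000213 and 8e-05), with r = 0.89 and 0.69 within these sets and 0.80 without the 2 libraries.

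Fbxl22 ran the other way, with r = −0.85 and rho = −0.84 (permutation p = 1e-05, the smallest possible, and 3e-05, both adjusted 8e-05). It was −0.79 and −0.89 within the 2 sets and −0.75 without the 2 libraries. Trim54 had r = −0.55 (permutation p = 0.0146, adjusted 0.0293) and rho = −0.47 (permutation p = 0.0420, adjusted 0.0840), with r = −0.24 without the 2 libraries. For Fbxo32, Trim63, Asb2 and Kbtbd10 the adjusted permutation p of r was 0.106 to 0.865. With the trends on length and GC content removed from each library, HF week 3 against Recovery weeks 7 to 13 gave −2.23 for Fbxo40 (limma adjusted p = 0.000138) and −1.62 for Trim55 (limma adjusted p = 0.000668). HF week 5 against control gave −2.62 and −2.31.

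**Figure D4:**
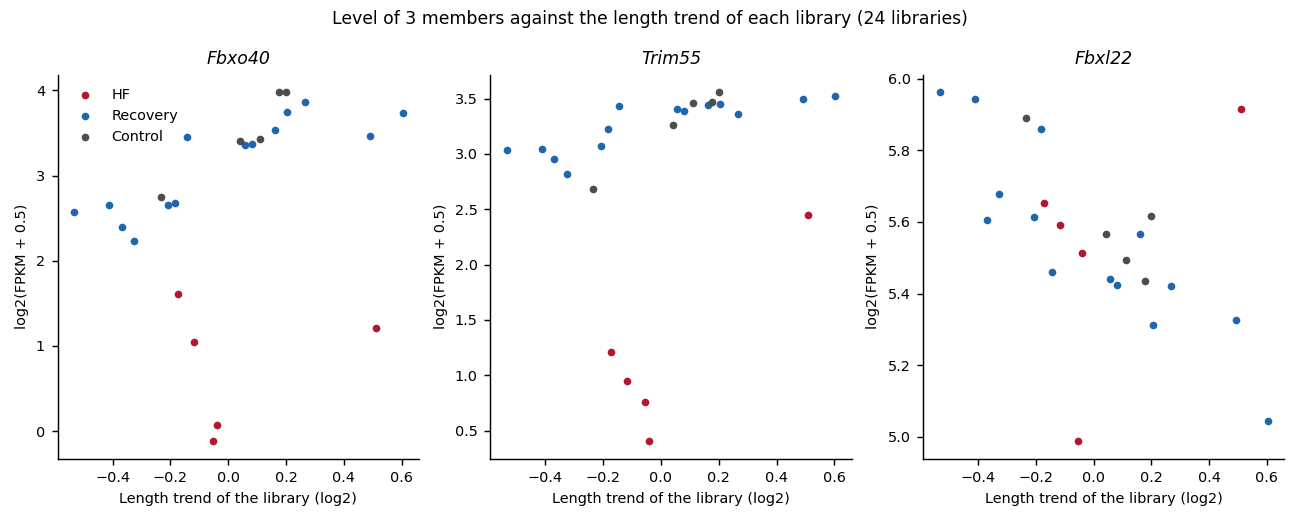
Log2(FPKM + 0.5) of Fbxo40, Trim55 and Fbxl22 (vertical axes) against the length trend of each of the 24 libraries (horizontal axes, log2); red points are heart failure, blue recovery and grey control. Outside heart failure Fbxo40 and Trim55 rise with the trend (r = 0.84 and 0.79) and Fbxl22 falls (r = −0.85), and the heart failure libraries lie below the others in the first 2 panels.

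The members did not all vary together. Over the 24 libraries the Pearson r of log2(FPKM + 0.5) with Fbxo40 was 0.93 for Trim55, 0.83 for Asb2 and 0.75 for Kbtbd10, and −0.09 for Fbxl22. These values rest in part on the step between heart failure and the rest, on which Fbxo40 was chosen. Over the 19 libraries outside heart failure r was 0.87 for Trim55, 0.39 for Asb2, −0.0014 for Kbtbd10 and −0.69 for Fbxl22. The libraries share the length trend described above. Trim63 and Trim54 had r = 0.77 with each other over 24 libraries and 0.41 over the 19.

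Among 6740 genes that averaged 5 FPKM or more and had no group wholly at 0, Trim55 was in place 32 in likeness to Fbxo40. The first 5 places were held by Pptc7 (r = 0.98), Jph2 (0.97), Tbc1d16 (0.97), Dag1 (0.96) and Tmem182 (0.96), with r = 0.84 to 0.95 outside heart failure. The ranking used all 24 libraries, so a low level of these genes in heart failure is part of how they were picked. Jph2, which couples the sarcolemma to the sarcoplasmic reticulum in cardiac myocytes, had 99.3 ± 31.1 FPKM in Control week 19 (SD, n = 5) and 14.9 ± 7.09 in HF week 5 (SD, n = 3). Dag1, the gene of dystroglycan, had 26.6 ± 9.81 and 4.46 ± 0.74. Pptc7, a mitochondrial phosphatase gene, had 11.9 ± 3.52 and 2.70 ± 0.74. In HF week 3 the means of Jph2, Dag1 and Pptc7 were 10.1, 3.40 and 2.33 FPKM (n = 2).

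The other genes of the ubiquitin pathway were mostly lower in heart failure where they were called. Over 5 lists without the members, 94 genes were tested in HF week 5 against Control week 19, and limma called 30 lower and 3 higher at an adjusted p under 0.05. Over all genes tested 12.4% were called lower and 11.6% higher. Without HF week 5 library 1, 13 of the 94 were called lower (13.8%) and none higher, where 6.42% of all genes were called lower and 4.21% higher. In Recovery week 19 against HF week 5 limma called 30 higher and 1 lower, where 12.3% of all genes were higher and 12.0% lower. Without that library 17 were higher and 1 lower, where the shares of all genes were 6.86% and 5.27%. In HF week 3 against Recovery weeks 7 to 13, 44 were lower and 7 higher, where 28.0% of all genes were lower and 23.9% higher, so that 54.3% of the listed genes and 51.9% of all genes were called. Those shares were 38.3% and 28.4% without HF week 3 library 1, and 57.4% and 63.4% without library 2. With libraries centred on their medians, the share of higher calls among all genes in HF week 5 against control was 37.4%, in place of 48.4%.

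The list of other muscle or atrophy ligases had the most calls. In HF week 5 against control 13 of its 27 genes were lower and none higher, with a median log2 fold change of −0.52, against 0.04 over all genes. Of all genes tested 12.4% were lower and 11.6% higher. In Recovery week 19 against HF week 5, 14 were higher and none lower, where 12.3% of all genes were higher and 12.0% lower. Counts of single lists were not taken without HF week 5 library 1, where 13 of the 94 genes over all lists were called lower. Asb18, a relative of Asb2, had 3.90 ± 0.78 FPKM in control (SD, n = 5) and 0.529 ± 0.165 in HF week 5 (SD, n = 3), with a log2 fold change of −2.09 (SE 0.26, limma adjusted p = 5.75e-05). It was listed at 0 in one HF week 3 library and at 0.143 in the other. Asb15, another relative, had 6.08 ± 1.19 and 2.11 ± 1.11 FPKM (log2 fold change −1.42, SE 0.25, limma adjusted p = 0.000775). Without HF week 5 library 1, Asb18 had −1.96 and Asb15 −1.03 (limma adjusted p = 0.000729 and 0.00926).

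Of the 19 genes of the cullin core and of neddylation, 4 were lower and none higher in HF week 5. The shares of all genes in this comparison were 12.4% lower and 11.6% higher. Cand2, which exchanges substrate receptors on cullins in muscle, had 16.9 ± 3.95 FPKM in control and 9.16 ± 3.05 in HF week 5 (log2 fold change −0.87, SE 0.20, limma adjusted p = 0.00494). Ube2f, the NEDD8 conjugating enzyme of CUL5, had −0.41 (SE 0.14, limma adjusted p = 0.0461, and −0.19 without HF week 5 library 1). Neither call held without HF week 5 library 1 (for Cand2 −0.58, limma adjusted p = 0.0634, and for Ube2f limma adjusted p = 0.394, where the lowest over the alternatives were 0.000297 and 0.0140). In HF week 3 against Recovery weeks 7 to 13 Cand2 had −1.05 (limma adjusted p = 0.000623) and Ube2f −0.20 (limma adjusted p = 0.287). Of 14 genes of ubiquitin and its E1 and E2 enzymes, 5 were lower and none higher in HF week 5 against control. Ube2d1, an E2 that works with many RING ligases, had 29.3 ± 2.62 FPKM in control and 17.3 ± 3.85 in HF week 5 (log2 fold change −0.77, SE 0.14, limma adjusted p = 0.000789). Ube2g1 had −0.55 (SE 0.13, limma adjusted p = 0.00444), and without library 1 it had −0.32 (limma adjusted p = 0.0470).

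Of 23 listed regulators of muscle ligase genes 20 were tested, and 7 were lower and 2 higher in HF week 5 against control. Over all genes tested these shares were 12.4% and 11.6%. Klf15, a glucocorticoid-induced factor that can activate atrophy genes, had 28.0 ± 4.13 FPKM in control and 9.95 ± 0.83 in HF week 5 (log2 fold change −1.44, SE 0.17, limma adjusted p = 3.85e-05). Foxo3, a transcription factor that activates Fbxo32 and Trim63 in atrophy, had 5.54 ± 2.41 and 1.52 ± 0.45 FPKM (log2 fold change −1.48, SE 0.43, limma adjusted p = 0.0170, and 0.0629 without HF week 5 library 2). In HF week 3 it had 1.77 and 7.25 FPKM. Foxo1, of the same family, was higher, with 3.08 ± 0.49 in control and 4.75 ± 0.63 in HF week 5 (log2 fold change 0.56, SE 0.15, limma adjusted p = 0.0129). Igf1, a growth factor that restrains atrophy genes, rose from 1.27 ± 0.52 to 3.78 ± 2.55 FPKM (log2 fold change 1.17, SE 0.31, limma adjusted p = 0.0107). Without HF week 5 library 1 Foxo1 had 0.46 and Igf1 0.71, and the calls for Foxo1 and Igf1 were lost (limma adjusted p = 0.0934 and 0.128, where the lowest over the alternatives were 0.00283 and 0.00411).

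Of 15 genes of known substrates and sarcomere partners, 1 was lower and 1 higher in HF week 5, beside 12.4% and 11.6% of all genes. Flna, a filamin of nonmuscle cells, had 12.1 ± 0.645 FPKM in control and 17.3 ± 2.63 in HF week 5 (log2 fold change 0.49, SE 0.13, limma adjusted p = 0.0125). Nbr1, an autophagy receptor that binds the titin kinase region, had 18.7 ± 0.635 and 15.0 ± 0.871 FPKM (log2 fold change −0.31, SE 0.09, limma adjusted p = 0.0168). Leaving out HF week 5 library 1, the sizes were 0.43 and −0.30, and neither call held (limma adjusted p = 0.0777 for Flna and 0.0718 for Nbr1, where the lowest over the alternatives were 0.00459 and 0.00431). In HF week 3 against Recovery weeks 7 to 13 Flna had 1.05 (limma adjusted p = 1.13e-05) and Nbr1 0.02 (limma adjusted p = 0.897).

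**Figure D5:**
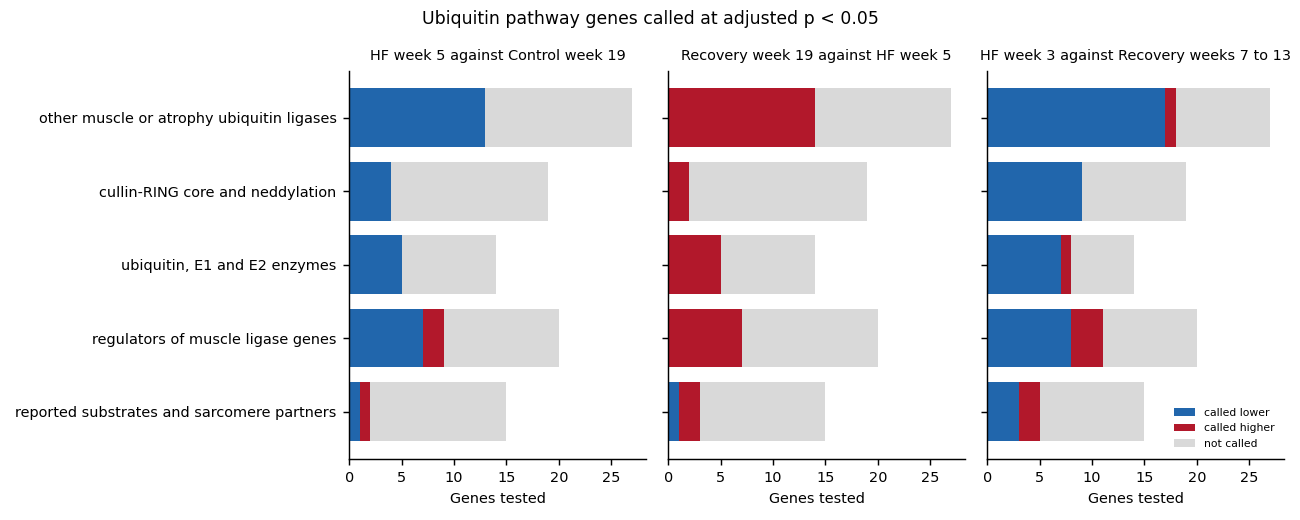
Number of genes tested in each ubiquitin pathway list (horizontal axes), split into those called lower, called higher and not called by limma at an adjusted p under 0.05, in 3 comparisons. The other muscle or atrophy ligases hold 13 lower calls of 27 in HF week 5 against control and 14 higher calls in Recovery week 19 against HF week 5. Of all genes tested, 12.4% were called lower in the former and 12.3% higher in the latter.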

How the data were processed

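Expression values of 24 mouse heart libraries in 8 groups were analysed. The authors enriched poly(A) RNA, aligned paired-end reads with TopHat2 to the mouse genome mm9 and deposited FPKM from Cuffdiff for each library. The gene annotation and the scaling between libraries are not given in the sources used here, and the read depth per library is unknown. The week in a column's name gave its group. Another 5 columns of single-sample values were not used, since they are named for the week 5 controls, of which 4 samples are labelled. For Recovery week 9, 2 columns stand against 3 labelled samples.

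Genes averaging 0.5 FPKM or more were tested on log2(FPKM + 0.5) by limma (version 3.58.1, under R 4.3.3), with 8 group means, eBayes with a trend and 16 residual degrees of freedom. Tests were two-sided, with Benjamini-Hochberg adjustment over all 12759 genes, called at an adjusted p under 0.05. The script was tested on simulated data. Correlations with the length trend had 100000 permutations, and lengths matched 93.6% of the genes tested. Plots came from matplotlib 3.10.9 and tables from pandas 2.3.3, under Python 3.11.15. The members and lists were chosen with earlier results of these data known. Named pathway genes are, in each list, up to 2 genes with the largest rise and 2 with the largest fall among those called in HF week 5 against Control week 19. Named genes alike to Fbxo40 are the 5 with the highest r, of which values by group are given for 3. Alternatives were other pseudocounts, filters and scalings, a fit on the compared groups only, robust eBayes and leaving out each library.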

Additional observations from a re-analysis of the deposited data

How the results depend on the processing

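Of 504 alternative values for the members in the 3 tested comparisons, 476 kept their direction and side of the threshold, 9 lost a call (8 of Trim54 and 1 of Trim63, all in HF week 3 against Recovery weeks 7 to 13), 8 gained one and 11 reversed. Fbxo40, Trim55, Asb2 and Kbtbd10 kept their calls in both HF week 3 comparisons under every alternative run. Leaving out single libraries, the members called numbered 4 to 6 in HF week 3 against Recovery weeks 7 to 13, 4 to 5 against Recovery week 19 and 0 in late against early recovery. The share of all genes called in the same fits ran from 28.4% (5 members, without HF week 3 library 1) to 63.4% (4 members, without library 2), from 29.6% to 62.7% and from 0.0235% to 0.259%. By unadjusted p the members called in late against early recovery numbered 1, and 0 to 2 with each library left out, where 4.40% to 15.2% of all genes passed. Members without overlap numbered 3 to 5 in HF week 5 against Control week 19 and in Recovery week 19 against HF week 5, reaching 5 without HF week 5 library 2. All genes without overlap in either direction were 29.5% and 26.7% with every library, 31.0% to 46.7% and 28.2% to 36.9% with 1 left out, and 41.4% and 36.9% without HF week 5 library 2. Pathway genes called, with each library left out, numbered 13 to 37 and 18 to 31 in those comparisons, the lowest of each without HF week 5 library 1, while all genes called ran from 10.6% to 28.6% and 12.1% to 25.5% in the same fits. All reversals were of values near 0 that were not called. Fbxo32 in HF week 3 against Recovery weeks 7 to 13 ran from −0.59 to 0.53 over the fits without 1 library (0.53 without HF week 3 library 2, 0.0023 without Recovery week 11 library 2) and was 0.011 with the length and GC trends removed. Against Recovery week 19 it was −0.044 with median centring and −0.063 with quantile normalization, and ran from −0.54 without HF week 3 library 1 to 0.58 without library 2 (−0.11 without Recovery week 19 library 5). In Recovery week 19 against weeks 7 to 13, Fbxo32 ran from −0.11 to 0.082, the highest without Recovery week 19 library 5, and Trim54 from −0.17 to 0.0072, the highest without Recovery week 19 library 1, and was 0.037 with quantile normalization. Fbxl22 in HF week 3 against Recovery weeks 7 to 13 ran from −0.085 without HF week 3 library 1 to 0.32 without library 2. The cause was not tested. Removing the length and GC trends, and leaving out both HF week 3 libraries, were chosen after seeing the data. No paired analysis was possible because the columns carry no label that links a library to an animal. HF week 3 has 2 libraries, and where 1 is left out the remaining one is assumed to vary like the other groups.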
